A study of Mus musculus with 12 samples.

Results

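The mouse Serpina3 genes form a cluster of serine protease inhibitors on chromosome 12, and 5 of them, Serpina3n, Serpina3m, Serpina3i, Serpina3g and Serpina3f, are described here among the 54532 genes counted in 12 libraries of polyA+ RNA from mouse striatum. The 5 genes were chosen by symbol with their counts in these same libraries already known, so their levels are given as a description, with no test and no p-value. All animals were C57BL/6J mice. Each of the 4 groups holds 3 libraries. The 3d-SN011 and SN011 libraries both came from mice given transient middle cerebral artery occlusion (tMCAO, a filament model of stroke with reperfusion) and SN-011, a small molecule that binds the innate immune adaptor STING and holds it inactive. The labels do not say what the prefix 3d stands for, and no vehicle or sham library carries it, so a difference of the 3d-SN011 group from vehicle or sham cannot be told apart from whatever the prefix marks. The vehicle libraries came from mice with tMCAO and PBS, and the sham libraries from mice with sham surgery and PBS. Neither the age of the mice nor whether each library is a separate animal is stated in the sources used here, so p-values measure the spread between these libraries, which may be technical.

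Serpins inhibit proteases by offering an exposed reactive centre loop as bait. The target cleaves the loop and is then trapped in a covalent complex, so the loop sequence sets which protease is caught. The human counterpart SERPINA3, alpha-1-antichymotrypsin, is an acute-phase protein that the liver secretes into plasma under inflammatory cytokines, and in mouse brain Serpina3n is a widely used marker of reactive astrocytes.

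The reactive centre loop is shown because it decides which protease is caught. The members differed less in its hinge than in the codons after the hinge. Each hinge was found by requiring the same opening residues in every member, so part of that difference was set in advance. The sequences below were read from GENCODE M21 transcripts on GRCm38 (mm10), all on the plus strand and all within the coding part of a single exon. Lower case marks the conserved hinge, the first part of the loop, and the conserved Pro-Phe-Leu codons at the end. Capitals mark all codons between them, called the variable stretch here. Its ends were set by sequence and not by structure, so it can run past the end of the loop.
Serpina3n, chr12:104413445-104413540: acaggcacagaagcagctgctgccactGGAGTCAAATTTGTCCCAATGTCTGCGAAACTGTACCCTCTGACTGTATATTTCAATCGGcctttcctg
Serpina3i, chr12:104268477-104268572: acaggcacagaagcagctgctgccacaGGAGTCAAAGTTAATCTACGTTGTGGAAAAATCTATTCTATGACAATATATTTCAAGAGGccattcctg
Serpina3m, chr12:104393766-104393861: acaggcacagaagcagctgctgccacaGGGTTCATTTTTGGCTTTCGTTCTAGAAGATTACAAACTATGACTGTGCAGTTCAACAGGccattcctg
Serpina3g, chr12:104241069-104241164: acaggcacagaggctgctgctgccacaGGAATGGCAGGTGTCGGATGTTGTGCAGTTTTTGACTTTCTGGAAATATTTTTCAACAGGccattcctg
Serpina3f, chr12:104220242-104220340: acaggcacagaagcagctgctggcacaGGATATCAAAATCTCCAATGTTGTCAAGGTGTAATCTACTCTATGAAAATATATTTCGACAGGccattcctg
Against Serpina3n, the hinge was 96.3% identical in Serpina3i and Serpina3m, 92.6% in Serpina3f and 88.9% in Serpina3g. The variable stretch was 66.7% identical to that of Serpina3n in Serpina3i, 56.7% in Serpina3m and 53.3% in Serpina3g, each over all 60 bases of 20 codons. The variable stretch of Serpina3f holds 21 codons and could be aligned only with gaps, and 39 of its 57 aligned bases (68.4%) were identical. That share leaves the gaps out and is not on the same footing as the other 3.

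Because the members are close copies of one another, the chance of reads being counted to the wrong copy was examined on the transcripts. Over whole transcripts Serpina3n was between 79.3% and 82.0% identical to the other 4 members, while Serpina3i, Serpina3g and Serpina3f were between 87.7% and 88.6% identical to one another. No stretch of 150 bases, the length of 1 read, in the transcripts of Serpina3n, Serpina3i, Serpina3g or Serpina3f was shared exactly with any other Serpina3 gene. In Serpina3m 5 of 1510 such stretches (0.331%) were shared, and its annotated exons share 60 bases with those of Serpina3k, which starts at the same position. Serpina3k had 0 counts in every library. Counts of a few reads in one copy are still uncertain beside the many Serpina3n reads, since reads with sequencing errors were not followed.

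Serpina3n (ENSMUSG00000021091, chr12:104406729-104414329) encodes a secreted inhibitor that in mouse blocks granzyme B and leukocyte elastase. Its CPM values (counts divided by library size, with trimmed-mean-of-M-values scaling, TMM) were 768, 910 and 1105 in the 3d-SN011 libraries and 178, 105 and 430 in the SN011 libraries. They were 13.7, 7.22 and 47.3 in the vehicle libraries and 3.70, 5.09 and 5.44 in the sham libraries. No library of one group reached into the range of another, so the order 3d-SN011, SN011, vehicle, sham held for every library. The raw counts ran from 15014 to 20513 in 3d-SN011, from 1802 to 7850 in SN011, from 111 to 735 in vehicle and from 61 to 90 in sham. Among all genes ranked by TPM within a library, a level corrected for gene length, Serpina3n stood at positions 56, 39 and 40 in the 3d-SN011 libraries, 357, 734 and 94 in the SN011 libraries, 6659, 9631 and 2068 in the vehicle libraries, and 12186, 10962 and 10644 in the sham libraries.

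The group means of Serpina3n were 928 ± 169 CPM in 3d-SN011, 238 ± 170 in SN011, 22.8 ± 21.5 in vehicle and 4.75 ± 0.922 in sham (SD, n = 3 each). Relative to the mean, the SD was largest in the vehicle and SN011 groups, and in each of them replicate 3 was the highest library. The fitted log2 fold change was 5.35 (SE 0.68) for 3d-SN011 over vehicle, 1.96 (SE 0.58) for 3d-SN011 over SN011, 3.39 (SE 0.63) for SN011 over vehicle, 5.65 (SE 0.71) for SN011 over sham and 2.26 (SE 0.64) for vehicle over sham. These comparisons share libraries and are not independent of one another. As ratios of summed CPM they were 40.7, 3.82, 10.6, 51.0 and 4.79, in the same order. Without vehicle replicate 3 the ratio of vehicle over sham was 2.22, that of SN011 over vehicle 22.9 and that of 3d-SN011 over vehicle 87.6. Without SN011 replicate 3 the ratio of SN011 over sham was 29.9, that of SN011 over vehicle 6.25 and that of 3d-SN011 over SN011 6.51.

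**Figure D1:**
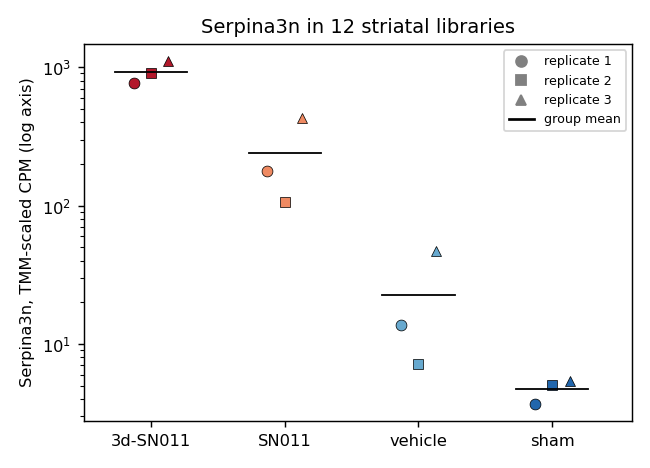
Serpina3n in each of the 12 libraries, in TMM-scaled CPM on a log axis, by group; marker shapes are the replicate numbers and lines the group means. The 3d-SN011 libraries sit between 768 and 1105 CPM and the sham libraries between 3.70 and 5.44, with no overlap between any neighbouring groups.

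Serpina3n made up nearly all counts of the 5 members. Its share was between 99.0% and 99.6% in 3d-SN011, between 99.3% and 99.7% in SN011, between 96.5% and 99.3% in vehicle and between 91.0% and 97.8% in sham. The other 4 members are therefore described from far fewer counts, and counting error alone is wide for them. All 5 members passed the filter on low counts, and the 4 minor ones did so only through the 3d-SN011 libraries. Over the 12 libraries the member with the fewest counts was Serpina3f, with 79, and the highest of the 9 other Serpina3 genes and pseudogenes of the cluster was Serpina3h, with 26.

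Serpina3i (ENSMUSG00000079014, chr12:104263122-104269372) had 11, 28 and 43 counts in the 3d-SN011 libraries and 8, 6 and 15 in the SN011 libraries. It had 0, 0 and 3 counts in the vehicle libraries and 0 in all 3 sham libraries, where 3 counts over the group would be 0.0606 CPM. It was the only minor member detected in every SN011 library. The 3d-SN011 and SN011 groups overlapped, with a ratio of summed CPM of 2.55 (95% counting interval 1.65 to 4.04). The ratio of SN011 over vehicle was 8.61 (2.67 to 44.2), and 3d-SN011 over vehicle was 22.0 (7.26 to 109). SN011 was at least 9.09-fold higher than sham, set against 3 counts over the sham group. Such a fold limits only the group at 0 and allows for no counting error in the other group. Without vehicle replicate 1 the ratios over vehicle were 5.67 for SN011 and 14.5 for 3d-SN011. All vehicle counts lay in replicate 3. Without it only bounds remained, at least 5.76-fold for SN011 and 14.7-fold for 3d-SN011. Without 3d-SN011 replicate 3 the ratio of 3d-SN011 over SN011 was 1.78 (1.07 to 2.99). Without any 1 sham library the bound of SN011 over sham was 6.06.

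Serpina3m (ENSMUSG00000079012, chr12:104338486-104394257) was carried mostly by 1 library. It had 12, 11 and 90 counts in the 3d-SN011 libraries, 0, 0 and 1 in the SN011 libraries, and 0 in all vehicle and all sham libraries. In CPM, 3d-SN011 replicate 3 stood at 4.85, beside 0.614 and 0.544 in replicates 1 and 2. For each 1000 counts of Serpina3n, the 3d-SN011 libraries held 0.799, 0.598 and 4.39 counts of Serpina3m. 3d-SN011 was at least 30.3-fold higher than vehicle, set against 3 counts over the vehicle group, and the ratio over SN011 was 102 (17.9 to 4064). The ratio over SN011 rests on 1 count, in SN011 replicate 3, and without that library 3d-SN011 was at least 22.2-fold higher, set against 3 counts over the other SN011 libraries. Without 3d-SN011 replicate 3 the bound over vehicle was 9.04 and the ratio over SN011 was 30.4. Leaving out a vehicle library lowered the bound to between 19.96 and 20.4, since the floor then rests on 2 libraries.

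Serpina3g (ENSMUSG00000041481, chr12:104236245-104241939), known in mouse as an inhibitor inside the cell that protects against cathepsins released from lysosomes, had 62, 24 and 50 counts in the 3d-SN011 libraries. It had 6, 0 and 11 in the SN011 libraries, 2, 4 and 0 in the vehicle libraries and 4, 5 and 2 in the sham libraries. The 3d-SN011 libraries lay above all 9 others, and those 9 overlapped from group to group. The ratio of 3d-SN011 was 18.2 (8.16 to 50.5) over vehicle and 7.22 (4.35 to 12.8) over SN011. The ratios among the other groups were 2.52 (0.9497 to 7.82) for SN011 over vehicle, 1.45 (0.642 to 3.43) for SN011 over sham and 0.576 (0.175 to 1.70) for vehicle over sham. Their intervals cover counting error only, not the spread between libraries. The fitted log2 fold changes, in the same order, were 1.28 (SE 1.02), 0.51 (SE 0.92) and -0.76 (SE 1.08). These 3 ratios moved with single libraries. SN011 over vehicle was 5.09 (1.21 to 45.4) without vehicle replicate 2 and 3.74 (1.41 to 11.6) without SN011 replicate 2. It was 1.36 (0.365 to 5.10) without SN011 replicate 3. SN011 over sham was 0.785 (0.238 to 2.32) without SN011 replicate 3, and vehicle over sham was 0.285 (0.0307 to 1.31) without vehicle replicate 2. Without vehicle replicate 2 the ratio of 3d-SN011 over vehicle was 36.8, and without vehicle replicate 3 it was 12.2. The ratio of 3d-SN011 over SN011 was 13.4 without SN011 replicate 3 and 4.88 without SN011 replicate 2.

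Serpina3f (ENSMUSG00000066363, chr12:104214544-104221129) had 31, 15 and 17 counts in the 3d-SN011 libraries, 8, 0 and 3 in the SN011 libraries, 0, 0 and 2 in the vehicle libraries and 2, 1 and 0 in the sham libraries. Only the 3d-SN011 group stood clear of the others. Its ratio was 25.3 (6.73 to 214) over vehicle and 5.17 (2.70 to 10.9) over SN011. Without vehicle replicate 1 the ratio over vehicle was 16.7, and without vehicle replicate 3 it was at least 11.3-fold. The ratio over SN011 was 12.7 without SN011 replicate 1 and 3.49 without SN011 replicate 2.

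**Figure D2:**
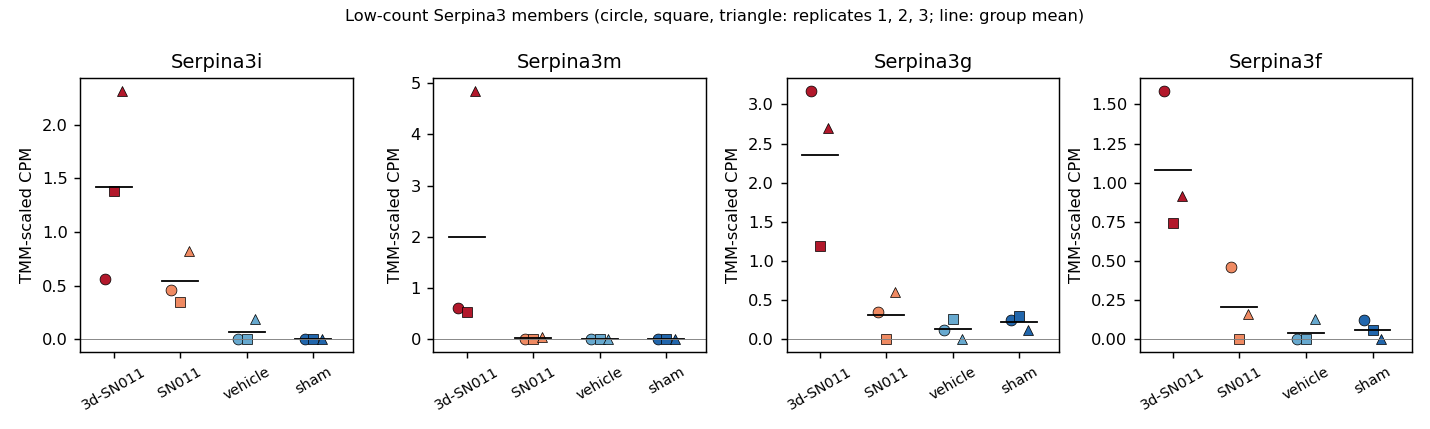
The 4 low-count members in each library, in TMM-scaled CPM on linear axes that differ between panels; marker shapes are the replicate numbers and lines the group means. Serpina3m is high in 3d-SN011 replicate 3, at 4.85 CPM, while Serpina3g and Serpina3f are highest in 3d-SN011 replicate 1.

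Within the 3d-SN011 group the members did not share an order. Serpina3n, Serpina3i and Serpina3m were highest in replicate 3, and Serpina3g and Serpina3f in replicate 1. Counted over all members, the 3d-SN011 libraries lay above every vehicle library for 5 of 5 members, where 29.5% of the 18537 genes tested did so. They lay above every SN011 library for 4 of 5 members, against 24.6% of genes. The SN011 libraries lay above every vehicle library for 2 of 5 members (9.01% of genes) and above every sham library for the same 2, Serpina3n and Serpina3i (12.8% of genes). The vehicle libraries lay above every sham library for Serpina3n alone (6.86% of genes). Since the members were chosen with these counts known, nothing is read from those shares.

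The rest of the cluster was nearly silent. Serpina3h, a transcribed pseudogene, had 7 counts in each 3d-SN011 library, 0, 1 and 2 in the SN011 libraries, and 0, 0 and 1 in both the vehicle and the sham libraries. Serpina3c had the promoter closest to that of Serpina3n among those aligned below. Its counts were 1, 1 and 6 in the 3d-SN011 libraries and 0 in all SN011 and all vehicle libraries. In the sham libraries they were 0, 1 and 0. Serpina3e-ps, a pseudogene, had 0 counts in all 3d-SN011 libraries, 8 over the SN011 libraries, 10 over the vehicle libraries and 6 over the sham libraries. Serpina3b had 1 count in all, and Serpina3a, Serpina3d-ps, Serpina3j, Serpina3k and Serpina3l-ps had 0 throughout.

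The promoters of the members are shown because Serpina3n differs there from Serpina3i, Serpina3g and Serpina3f in a motif of STAT factors. These factors carry interleukin-6 and interferon signals. RefSeq promoters on GRCm38.p6 were found for 4 of the 5 members, not for Serpina3m. The blocks below are aligned to that of Serpina3i, 59 bases each and on the strand of the gene, and capitals mark the 9 bases at the aligned position of the STAT motif TTCNNNGAA.
Serpina3i, chr12:104262995-104263053: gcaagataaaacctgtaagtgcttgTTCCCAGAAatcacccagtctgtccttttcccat
Serpina3g, chr12:104236089-104236147: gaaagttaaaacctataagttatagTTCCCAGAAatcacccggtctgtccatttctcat
Serpina3f, chr12:104214398-104214456: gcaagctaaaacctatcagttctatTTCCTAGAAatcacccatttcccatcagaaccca
Serpina3n, chr12:104406560-104406618: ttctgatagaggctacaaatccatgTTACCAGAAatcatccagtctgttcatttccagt
Serpina3c, chr12:104153959-104154017: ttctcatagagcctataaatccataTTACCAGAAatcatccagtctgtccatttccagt
The motif was matched in Serpina3i, Serpina3g and Serpina3f and not in Serpina3n or in Serpina3c, whose promoter was 93.5% identical to that of Serpina3n over 294 aligned bases. Of 32851 promoters of 300 bases, 8.30% hold it on either strand, and since it reads the same on both strands each site counts once. Of 4 further motifs searched on both strands, the NF-kB motif was matched in Serpina3g and Serpina3i (8.46% of promoters), the C/EBP letters TTGCNNAA in Serpina3f (10.8%), the TATA letters TATAAA in Serpina3f (13.6%) and the interferon-response letters TTTC, any 2 bases and TTTC again in none of the 4 (3.44%). The TATA match of Serpina3f lay at -186 from the start site on the opposite strand. A second promoter entry of Serpina3f did not hold it. No match of the 5 motifs was found in the Serpina3n promoter, which says only that these letters are absent from that window.

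Genes whose pattern over the 12 libraries was most like that of Serpina3n were ranked among 14068 candidates by the mean absolute difference in log2 CPM relative to the sham mean. The closest were Lilrb4a, an inhibitory receptor of myeloid cells, at 0.74, and Tgm1, a transglutaminase, at 0.78. Cd5l, a secreted macrophage protein, followed at 0.87, Gpnmb, a membrane glycoprotein of activated phagocytes, at 0.95, and Lgals3, the lectin galectin-3, at 0.98. Lilrb4a stood at 42.4, 31.8 and 60.5 CPM in the 3d-SN011 libraries, 4.51, 3.45 and 17.3 in SN011, 0.437, 0.651 and 1.16 in vehicle and 0.364, 0.0606 and 0.242 in sham. Like Serpina3n, it was highest in replicate 3 within SN011 and within vehicle. For Serpina3m the closest gene was Lrg1, a secreted acute-phase glycoprotein, at 0.26, and Lrg1 stood at 9.72, 4.99 and 36.1 CPM in the 3d-SN011 libraries, 0.867, 0.585 and 1.15 in SN011, 1.06, 0.586 and 0.644 in vehicle and 0.546, 0.970 and 0.726 in sham. Both were thus highest in 3d-SN011 replicate 3. Since Lilrb4a and Lrg1 were picked for likeness over these same libraries, nothing is read from the orders they share with the members. The closest genes to the others were Slc22a18, Cebpd and Trpm5 for Serpina3i, Fhl3, Itgal and Ecscr for Serpina3g, and Tlr9, Vamp8 and Nrros for Serpina3f. Since the minor members have few counts, these likenesses rest partly on low levels in most libraries.

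**Figure D3:**
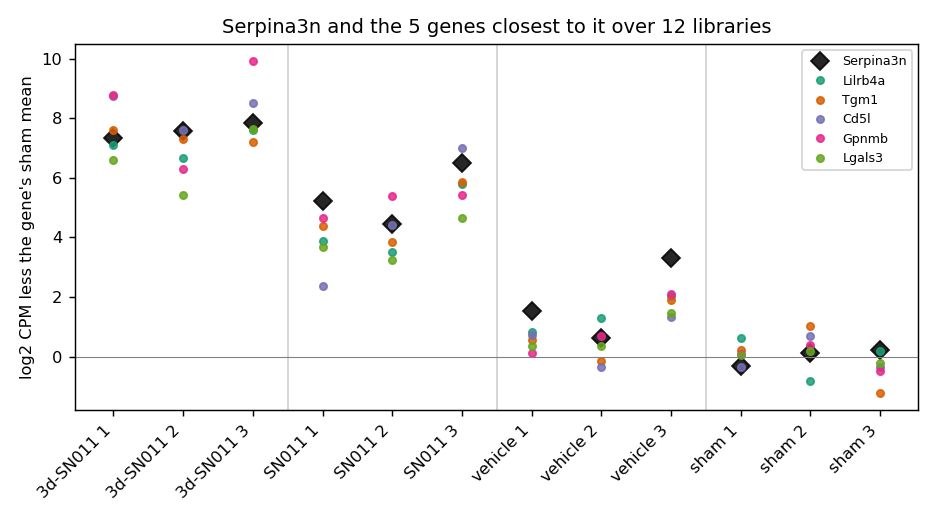
log2 CPM of Serpina3n (diamonds) and of the 5 genes closest to it (circles), each less its own sham mean, in the 12 libraries. In 3d-SN011 Lilrb4a averages 7.12 and Tgm1 7.37 above sham, and all 6 genes are higher there than in the other groups.

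For genes outside the family, calls come from edgeR's quasi-likelihood test over 18537 genes with Benjamini-Hochberg adjustment at 0.05. In 3d-SN011 against vehicle 28.9% of genes were called higher and 28.2% lower, and against SN011 23.6% were called higher and 22.9% lower. In SN011 against sham 0.113% of genes were called higher and 0% lower, and in SN011 against vehicle 0.0108% were called higher and 0.00539% lower. In vehicle against sham 0% were called in either direction by edgeR, while 467 genes had an unadjusted p under 0.05 and DESeq2 called 5. Beside that background, the median log2 fold change in 3d-SN011 over vehicle was 3.45 for reactive astrocyte genes, 3.32 for proteases, 3.16 for disease-associated oligodendrocyte genes, 2.74 for acute-phase proteins, 2.52 for interferon-gamma-induced genes, 2.03 for regulators and 1.30 for other serpins, against 0.01 over all genes. None of the listed genes was called in vehicle against sham. The counts called in SN011 against vehicle or sham depended on single libraries and on the test, and for each list they are given as found and then without SN011 replicate 2, the library whose absence raised them most. Some genes, among them Clcf1, C4b and Cxcl10, stand in more than 1 list, so the lists are not independent. In bulk tissue, fewer cells of a type and less RNA per cell cannot be told apart in any of these values.

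Other serpins that were high enough to test mostly moved with the 3d-SN011 group. Of 43 listed, 17 were tested, and 11 of these were called higher and 3 lower in 3d-SN011 against vehicle. Serping1, the C1 inhibitor of complement, rose to 60.9 ± 5.40 CPM in 3d-SN011, against 5.34 ± 0.739 in vehicle (log2 3.51, SE 0.33, edgeR adjusted p = 1.34e-05). Serpinh1, a collagen chaperone, rose to 68.9 ± 19.9 CPM in 3d-SN011, against 19.5 ± 4.19 in vehicle (edgeR adjusted p = 6.63e-05). Serpina9, a serpin named for germinal-centre B cells, fell to 8.78 ± 5.39 CPM in 3d-SN011, against 55.8 ± 2.85 in vehicle (log2 -2.67, SE 0.35, edgeR adjusted p = 5.24e-05). Against SN011, 9 were called higher and 3 lower, among them Serpinb6a, higher by 1.15 on the log2 scale (SE 0.22, edgeR adjusted p = 0.00129). In SN011 against sham the 1 serpin called was Serping1, at 18.4 ± 9.84 CPM in SN011 and 4.56 ± 0.554 in sham (edgeR adjusted p = 0.0348). Without SN011 replicate 2, 2 serpins were called against sham and 1 against vehicle. The call of Serping1 was lost without any 1 sham library, without SN011 replicate 1 and in the fit of these 6 libraries alone, where its adjusted p was 0.174 (1.03e-06 to 0.270 over its 11 alternatives).

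Proteases were listed as possible targets of the family. Of 22 listed, 11 were tested, and 9 were called higher and none lower in 3d-SN011 both against vehicle and against SN011. The cathepsins led. Ctsb, a lysosomal cysteine protease, stood at 4646 ± 848 CPM in 3d-SN011, against 465 ± 31.1 in vehicle (log2 3.32, SE 0.37, edgeR adjusted p = 1.91e-05) and 1009 ± 668 in SN011 (log2 2.20, edgeR adjusted p = 0.000437). Without SN011 replicate 3 the log2 fold change of Ctsb over SN011 was 2.89. Ctsl rose to 542 ± 26.0 CPM in 3d-SN011, against 59.1 ± 10.8 in vehicle, and Ctsh to 142 ± 42.3, against 10.1 ± 1.05. Ctsc, which activates granule serine proteases, rose to 89.6 ± 12.9 CPM in 3d-SN011, against 23.9 ± 13.6 in SN011. No protease was called in SN011 against vehicle or sham, while 8 were called in each comparison without SN011 replicate 2, and DESeq2 called 7 against vehicle and 8 against sham. The granule proteases that Serpina3n is known to inhibit were too low to test. Gzmb, granzyme B, had 15, 7 and 5 counts in the 3d-SN011 libraries, 3, 0 and 11 in SN011, 0, 1 and 0 in vehicle and 4, 5 and 2 in sham. Elane, leukocyte elastase, had 1 count over the 3d-SN011 libraries, 4 over SN011, 0 over vehicle and 1 over sham.

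Regulators of acute-phase genes, meaning interleukin-6-family, interleukin-1 and NF-kB components and the glucocorticoid receptor, were 29 tested of 31 listed. In 3d-SN011, 23 were called higher and 2 lower against vehicle, and 24 higher and none lower against SN011. The 2 that fell against vehicle were Jak2 and Nr3c1, the glucocorticoid receptor, named after their values were seen. Clcf1, an interleukin-6-family cytokine, rose to 28.4 ± 3.46 CPM in 3d-SN011, against 2.22 ± 0.474 in vehicle (log2 3.68, SE 0.35, edgeR adjusted p = 1.39e-05) and 6.02 ± 3.44 in SN011. Tnfrsf1a, a receptor for tumour necrosis factor, rose to 135 ± 13.7 CPM in 3d-SN011, against 11.4 ± 2.36 in vehicle, and Rela, an NF-kB subunit, to 82.7 ± 6.57, against 32.4 ± 1.78. Il1r1, the interleukin-1 receptor, rose to 37.8 ± 12.7 CPM in 3d-SN011, against 9.99 ± 2.36 in SN011. Stat3, named for its role after its values were seen, stood at 199, 169 and 235 CPM in 3d-SN011, 92.6, 71.5 and 114 in SN011, 65.2, 67.3 and 69.1 in vehicle and 66.3, 61.6 and 57.3 in sham. With edgeR no regulator was called in SN011 against vehicle or against sham. DESeq2 called 8 against vehicle and 9 against sham, edgeR with no filter 9 and 11, and edgeR without SN011 replicate 2 called 8 and 9.

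Acute-phase proteins other than serpins were 15 tested of 29 listed. In 3d-SN011, 13 were called higher against vehicle and 10 against SN011, with none lower. The 10 became 6 in the fit of the 6 libraries compared only. Over all 29 listed genes the summed CPM overlapped between groups. It was 1256 to 2040 in 3d-SN011, 1171 to 3224 in SN011 and 1332 to 2604 in vehicle. In the sham libraries it was 2394, 1211 and 183, beside 2553, 1237 and 110 for choroid plexus markers. The part of choroid plexus in these sums was not tested. Ptx3, a pentraxin, rose by 4.21 on the log2 scale in 3d-SN011 against vehicle (SE 0.51, edgeR adjusted p = 3.06e-05), and A2m, a broad protease trap, to 191 ± 17.9 CPM, against 12.3 ± 5.05. Cp, ceruloplasmin, rose to 46.1 ± 19.8 CPM in 3d-SN011, against 19.8 ± 1.96 in SN011. In SN011 against vehicle C3, the central complement component, was the 1 call, at 24.8, 22.9 and 24.7 CPM in the SN011 libraries and 3.50, 1.56 and 4.70 in the vehicle libraries (log2 2.89, SE 0.38, edgeR adjusted p = 0.0414). That call was lost without any 1 vehicle library or without SN011 replicate 1. In SN011 against sham 3 were called higher, C3 (edgeR adjusted p = 0.00870), C4b and A2m (both 0.0348), and each was lost without any 1 sham library. A2m and C4b were also lost in the fit of these 6 libraries alone, and A2m without SN011 replicate 1. Without SN011 replicate 2, 5 were called against sham and 6 against vehicle. The plasma proteins Saa1, Saa2, Orm1, Fgb and Alb were among the 14 too low to test.

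Genes induced by interferon-gamma, a known inducer of Serpina3g in mouse, were all tested. Of 26, 21 were called higher and 1 lower in 3d-SN011 against vehicle, and 14 higher and 1 lower against SN011. The 15 calls against SN011 became 7 without SN011 replicate 1 or without SN011 replicate 2, and 20 without SN011 replicate 3. They became 9, 8 and 23 without 3d-SN011 replicate 1, 2 and 3, and 6 in the fit of the 6 libraries compared only. Irf1 rose to 25.9 ± 4.74 CPM in 3d-SN011, against 4.40 ± 0.906 in vehicle, Irf8 to 143 ± 43.5, against 13.3 ± 1.58, and Psmb8, an immunoproteasome subunit, to 30.5 ± 10.2, against 2.01 ± 0.746. Ido1, which degrades tryptophan, went the other way, with 0, 1.63 and 2.10 CPM in the 3d-SN011 libraries and 12.9, 12.6 and 6.96 in the SN011 libraries (log2 -3.12, SE 0.61, edgeR adjusted p = 0.00143). Without 3d-SN011 replicate 3 its log2 fold change was -3.70, and without 3d-SN011 replicate 1 it was -2.53. In SN011 against sham the 1 call was Cxcl10, a chemokine, at 8.66 ± 6.34 CPM in SN011 and 0.222 ± 0.0927 in sham (edgeR adjusted p = 0.0388). It was lost without any 1 sham library, without SN011 replicate 1 or 3, and in the fit of these 6 libraries alone (adjusted p = 0.153, with 2.14e-07 to 0.273 over its 11 alternatives). Without SN011 replicate 2, 13 of the 26 were called against sham and 7 against vehicle.

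Genes of reactive astrocytes, the cells for which Serpina3n is best known in brain, were 31 tested of 32 listed without Serpina3n itself. In 3d-SN011, 27 were called higher against vehicle and 26 against SN011, with none lower. S1pr3, a sphingosine-phosphate receptor, rose to 104 ± 29.1 CPM in 3d-SN011, against 9.43 ± 2.59 in vehicle (edgeR adjusted p = 1.22e-05), and Srgn, a granule proteoglycan, to 36.3 ± 8.54, against 4.91 ± 0.552. Tm4sf1, a membrane protein, rose to 51.4 ± 12.5 CPM in 3d-SN011, against 20.4 ± 3.98 in SN011. In SN011 against sham 4 were called higher, Vim, S1pr3, Tgm1 and Cxcl10. Each was lost without any 1 sham library and in the fit of these 6 libraries alone, and S1pr3 and Cxcl10 also without SN011 replicate 1. Without SN011 replicate 2, 21 of the 31 were called against sham and 19 against vehicle, and DESeq2 called 20 and 17. Vim, an intermediate filament, stood at 276, 181 and 1187 CPM in the SN011 libraries and 36.2, 47.2 and 40.5 in the sham libraries, and Tgm1 at 8.49, 5.79 and 23.9, against 0.364, 0.727 and 0.0605. As for Serpina3n, SN011 replicate 3 was the highest library of its group for both. Without it the log2 fold change over sham was 2.47 for Vim and 4.19 for Tgm1, against 3.73 and 5.03 with it, and without sham replicate 2 that of Tgm1 was 5.86.

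Genes of disease-associated oligodendrocytes, a state in which Serpina3n is also known to be expressed, were called higher in 3d-SN011 for 10 of 10 both against vehicle and against SN011. Their median log2 fold change over vehicle was 3.16, beside 3.02 for microglial markers and 0.70 for oligodendrocyte markers. Which cells held these transcripts was not tested. H2-K1, a class I antigen-presenting molecule, rose to 376 ± 73.6 CPM in 3d-SN011, against 40.2 ± 13.3 in vehicle, Cd63, a tetraspanin, to 321 ± 15.2, against 43.8 ± 5.52, and Anxa2, a membrane-binding annexin, to 94.0 ± 15.6, against 10.54 ± 1.13. The 10 against SN011 became 6 in the fit of the 6 libraries compared only. Cdkn1a, a cell-cycle inhibitor, stood at 59.6, 43.5 and 219 CPM in the 3d-SN011 libraries, against 15.77, 11.58 and 22.74 in the SN011 libraries. Its log2 fold change was 2.68 and, without 3d-SN011 replicate 3, the highest library, 1.62. In SN011 against sham C4b was called, at 349 ± 215 CPM in SN011 and 44.2 ± 1.80 in sham, and it was lost without any 1 sham library and in the fit of these 6 libraries alone. Without SN011 replicate 2, 8 of the 10 were called against sham and 8 against vehicle.

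**Figure D4:**
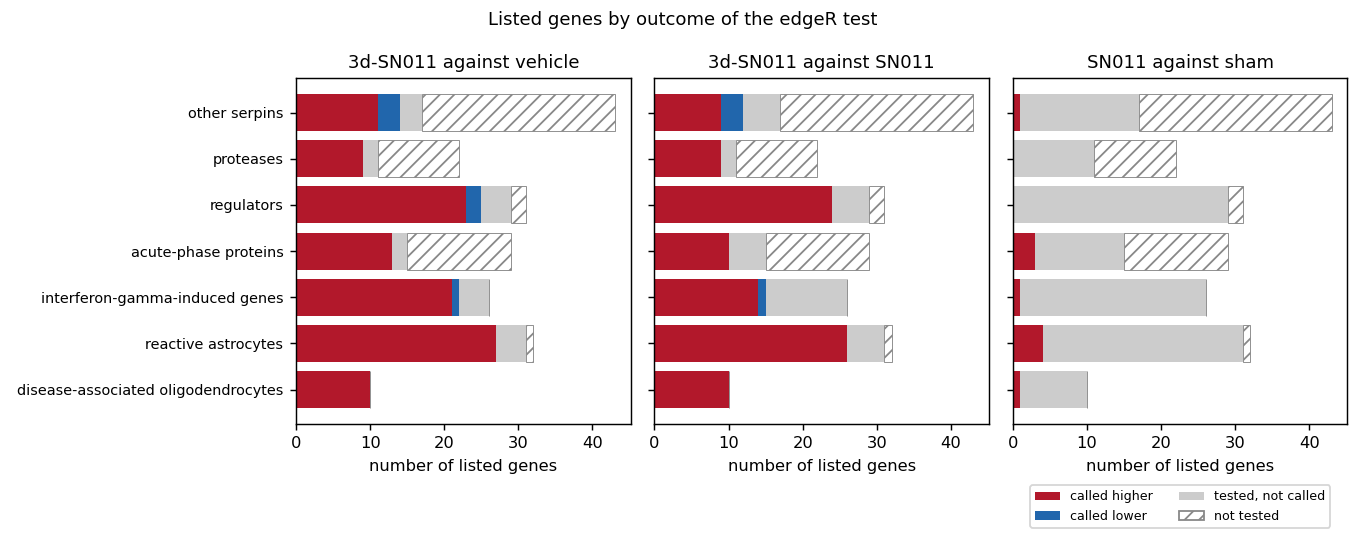
Number of listed genes by outcome of the edgeR test in 3 comparisons; red bars were called higher, blue lower, grey were tested and not called, and hatched were too low to test. Against vehicle, 27 of 31 tested reactive astrocyte genes and 10 of 10 disease-associated oligodendrocyte genes were called higher in 3d-SN011, and against sham at most 4 genes of any list were called in SN011 with all libraries in the fit. Without SN011 replicate 2 that number reached 21, for reactive astrocyte genes.

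Cell type markers moved alongside these genes, and their part in the values of the family was not tested. Markers of striatal neurons were called lower in 3d-SN011 against vehicle for 10 of 10 (summed 373 to 2261 CPM in 3d-SN011, 5341 to 9554 in SN011, 9254 to 9669 in vehicle and 9058 to 9714 in sham). Markers of striatum were thus present in all groups, at their lowest in 3d-SN011. Microglial markers were called higher for 8 of 8 (2079 to 3561 CPM in 3d-SN011, 452 to 1473 in SN011, 347 to 393 in vehicle and 374 to 408 in sham). Resting astrocyte markers were called higher for 9 of 10 (6452 to 8380 CPM in 3d-SN011, against 4642 to 4728 in vehicle), oligodendrocyte markers for 6 of 10 (15904 to 24700 CPM, against 9178 to 11329) and endothelial markers for 6 of 9 (414 to 739 CPM, against 307 to 350). In the same order, the sums were 5103 to 6240, 8758 to 12915 and 334 to 378 CPM in SN011. In sham they were 5041 to 5325, 9699 to 12378 and 408 to 449 CPM, so the endothelial range of 3d-SN011 overlapped that of sham. In SN011 replicate 3, the library highest for Serpina3n in its group, microglial markers summed to 1473 CPM and striatal neuron markers to 5341, beside 599 and 452 CPM and 8742 and 9554 CPM in replicates 1 and 2.

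Markers of hepatocytes and neutrophils were low. None of 9 hepatocyte markers was tested, with sums of 1.28 to 3.02 CPM in 3d-SN011, 0.384 to 1.39 in SN011, 0.250 to 0.708 in vehicle and 0.424 to 0.968 in sham, and Alb was at 0, 0.297 and 0.0539 CPM in the 3d-SN011 libraries. Of 10 neutrophil markers 1 was tested and not called, with sums of 1.33 to 3.71 CPM in 3d-SN011 and 0.772 to 2.21 in vehicle. Of 10 T and NK cell markers 4 were tested, 3 called higher and 1 lower in 3d-SN011 against vehicle, and the one that fell, Cd4, stood at 14.3 ± 7.42 CPM in 3d-SN011 and 89.5 ± 11.8 in vehicle. T and NK cell markers summed to 21.9 to 25.9 CPM in 3d-SN011, 55.8 to 91.3 in SN011, 81.0 to 104 in vehicle and 84.2 to 95.7 in sham. Cd4 made up most of that sum in vehicle, so the lower sum in 3d-SN011 does not describe the other markers. Among the 4 tested, the median log2 fold change in 3d-SN011 over vehicle was 3.47. Choroid plexus markers were called lower for 7 of 8 in 3d-SN011 against vehicle (36.4 to 791 CPM in 3d-SN011, 1057 to 3062 in SN011, 1348 to 2766 in vehicle and 110 to 2553 in sham).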

How the data were processed

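The deposited files hold whole-number read counts per Ensembl gene, which the authors made from mm10 alignments. HISAT2 and featureCounts are the tools named in the submitters' processing notes. Their versions, the annotation, the strand setting and the handling of multi-mapped reads are not stated there, so a gene and an antisense partner could share reads. Per the labels' protocols, polyA+ RNA was extracted with Trizol and sequenced on an Illumina HiSeq. Library totals were 15806076 to 18622053 counts. Of 54532 gene IDs, 54409 matched a symbol and an exon length in GENCODE M21.

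Genes were kept by edgeR's filterByExpr (minimum count 10), scaled by TMM and tested with the quasi-likelihood test of edgeR 4.0.16 in R 4.3.3 in 1 fit of all 12 libraries by group, with Benjamini-Hochberg adjustment and a threshold of 0.05. The procedure was tested on simulated counts. Ratios of summed CPM carry exact 95% intervals that cover counting error only. A group at 0 was set to 3 counts over the group. Folds given as at least allow for no counting error or spread in the other group. Sequence identity came from Biopython 1.88 alignments.

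The members and gene lists were chosen with earlier results of these data known. Named from each list in each comparison were the 3 called genes with the smallest adjusted p and a mean of at least 1 CPM, and by likeness the 5 genes closest to Serpina3n and the 3 closest to each other member. Alternatives were RLE scaling, DESeq2 1.42.0, no filter, only the 6 libraries compared, a replicate block, leaving out each library, CPM of the library total and members summed. Same-numbered libraries did not deviate together (correlations -0.29 to 0.14 over 18 pairs), so replicate numbers were not taken to pair samples.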

Additional observations from a re-analysis of the deposited data

How the results depend on the processing

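The 3d-SN011 comparisons called 10584 genes against vehicle and 8607 against SN011, and no alternative moved either count by 1.5 times. The SN011 and vehicle counts depended on the settings. For SN011 against sham, 21 genes were called, against 638 with DESeq2, 775 with no filter, 7 with the 6 libraries compared only, and 0 to 694 when 1 library was left out. For SN011 against vehicle, 3 genes were called, against 432 with DESeq2, 601 with no filter, 5 with the 6 libraries compared only, 19 with the replicate block, and 0 to 513 when 1 library was left out. For vehicle against sham, 0 genes were called, against 5 with DESeq2, 5 with no filter and 16 with the 6 libraries compared only. The cause was not tested. With the replicate block, the SN011 calls of A2m, Cxcl10, S1pr3, Serping1 and Vim against sham were lost. Since replicate numbers did not pair the libraries, a call lost under the block is not read as a weaker effect. In the fit of the 6 libraries compared only, the call of C3 in SN011 against sham was kept, and those of A2m, C4b, Cxcl10, S1pr3, Serping1, Tgm1 and Vim were lost. The log2 fold change of Serpina3n ranged from 4.92 to 6.46 in 3d-SN011 over vehicle, from 1.60 to 2.71 in 3d-SN011 over SN011, from 2.64 to 4.50 in SN011 over vehicle, from 4.90 to 6.00 in SN011 over sham and from 1.14 to 2.68 in vehicle over sham when 1 library was left out. Depth limits Serpina3i, Serpina3m, Serpina3g and Serpina3f, whose groups other than 3d-SN011 hold between 0 and 29 counts in all.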
